A study of Mus musculus with 8 samples.

Results

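Pluripotency regulators are the transcription factors and RNA-binding proteins that keep inner cell mass and embryonic stem cells unspecialised. The genes described here are 8 of the 55487 rows of the count table, taken by symbol: Pou5f1, Sox2, Nanog, Zfp42, Esrrb, Sall4, Lin28a and Prdm14. All 8 were found, and 7 passed the filter on low counts that left 13146 genes for testing, Sox2 being the exception. The study measured RNA by sequencing in mouse embryos at the 2-cell stage, to see what knockdown of Polq with CasRX, an RNA-cutting nuclease, does to the transcriptome. One-cell embryos of both groups were microinjected with CasRX 20 h after human chorionic gonadotropin and collected 10 h later in pools of 5. The 4 control samples received CasRX, and the 4 samples labelled as Polq knockdown received CasRX with a guide RNA against Polq, the gene of DNA polymerase theta. The genotype is labelled WT for the controls and polq knockdown for the other group. The sources used here name neither a guide in the control injection, nor the mouse strain, nor a shared origin of same-numbered samples.

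Pou5f1 (OCT4), a POU-domain factor, and Sox2, an HMG-box factor, bind side by side to a joined octamer and SOX element in the genes of the pluripotency network, and Nanog, Esrrb, Sall4 and Prdm14 act with them on chromatin. Lin28a encodes an RNA-binding protein that blocks the maturation of let-7 microRNAs, and Zfp42 (REX1) encodes a zinc finger protein long used as a marker of embryonic stem cells. In the mouse 2-cell embryo the zygotic genome is being switched on while RNA supplied by the oocyte is cleared, and the network is assembled later, as the inner cell mass forms.

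The control libraries held 33311665 to 43748621 counts each. In the knockdown-labelled group replicates 1, 2 and 3 held 4726159, 8627403 and 8100969 counts, and replicate 4 held 33650050. Shallow sequencing was found in that group alone, so that depth and label cannot be told apart for those 3 libraries. Levels are counts per 1000000 (CPM) after TMM scaling, which sets libraries to a common level by a trimmed mean, with mean ± SD over the 4 libraries of a group. Polq itself averaged 39.3 ± 7.65 CPM in control pools and 31.5 ± 11.03 CPM in knockdown-labelled pools (n = 4 each). The fitted Polq level was 80.4% of control with a 95% interval from 47.8% to 135%, so the groups are called by their labels throughout. The 11 markers of the 2-cell stage found in the table, Zscan4d and Zfp352 among them, exceeded 3 counts in every library and summed to 719 to 1349 CPM per control library and 765 to 1418 CPM per knockdown-labelled library. The 10 markers of oocyte-supplied RNA summed to 3483 to 6145 and 3771 to 6018 CPM. Of 15 markers of cumulus and granulosa cells, 9 had at most 3 counts in every library, Amh, Foxl2 and Fshr among them. Another 2 exceeded 3 counts in all 8 libraries, and Kitl, Amhr2 and Tnfaip6 had the highest means. The list summed to 10.3 to 34.3 CPM per control library and 12.6 to 19.2 CPM per knockdown-labelled library. The 6 markers of sperm and spermatids summed to at most 7.34 CPM in any library, with 5 of them at no more than 3 counts in each. The 6 markers of blood cells and fibroblasts summed to 0.0229 to 19.8 CPM per control library and 5.83 to 13.5 CPM per knockdown-labelled library. The part of other cells in the levels below was not tested.

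Promoter sequence was examined because several of these genes are classical targets of the Pou5f1 and Sox2 pair. RefSeq windows of 300 bases (250 before the transcript start and 50 after it, GRCm38.p6) were held for 6 of the 8 genes. They were searched on both strands for the octamer core ATGCAAA, the SOX core CATTGT and the ESRRB motif TCAAGGTCA, which were chosen after the sequences had been read. The octamer core was present in windows of Nanog, Sox2 and Zfp42, against 4.63% of all 32851 windows of this length. The SOX core was present in windows of Nanog, Pou5f1, Esrrb and Lin28a, against 12.57% of all windows. In Pou5f1 it was only in the second window, 158 bases before a transcript start that lies inside the GENCODE gene. The first Pou5f1 window, whose start lies close to the GENCODE gene start, had no match. In the first Esrrb window the SOX core lay 33 bases after the transcript start, and in Lin28a 96 bases before it. The ESRRB motif (0.42% of all windows) was in no window of the 6 genes. Pou5f1, Nanog and Esrrb had 2 windows each, so genes with a match and shares of windows are not like units. In the first Nanog window the octamer core began 75 bases before the start and the SOX core 67 bases before it, with 1 base between them. From the start of the second Nanog window, the same sites lay 151 and 143 bases upstream. This joined arrangement, CATTGTNATGCAAA, which overlaps both single motifs by construction, occurred in 2 of the 32851 windows, both of them Nanog windows that overlap each other. That count gives no separate evidence about Nanog, because the letters were chosen after the sequences had been read. For each of the 3 genes with an octamer core, 1 window is shown here 5′ to 3′, with the matched motifs in capitals. For Nanog it is the first window.
Nanog promoter, chr6:122707239-122707538, plus strand: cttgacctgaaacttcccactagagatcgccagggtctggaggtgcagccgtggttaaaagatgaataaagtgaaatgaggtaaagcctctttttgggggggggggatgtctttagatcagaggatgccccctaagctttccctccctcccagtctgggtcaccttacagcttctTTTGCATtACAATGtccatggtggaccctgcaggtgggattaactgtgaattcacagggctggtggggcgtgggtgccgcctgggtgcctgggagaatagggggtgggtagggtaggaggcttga
Sox2 promoter, chr3:34649745-34650044, plus strand: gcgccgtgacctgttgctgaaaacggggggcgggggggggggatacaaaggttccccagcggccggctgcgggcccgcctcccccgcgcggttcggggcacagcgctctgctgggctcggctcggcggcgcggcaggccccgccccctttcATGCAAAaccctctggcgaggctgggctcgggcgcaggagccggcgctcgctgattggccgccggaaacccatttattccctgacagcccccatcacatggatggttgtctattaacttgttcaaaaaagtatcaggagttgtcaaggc
Zfp42 promoter, chr8:43306960-43307259, minus strand: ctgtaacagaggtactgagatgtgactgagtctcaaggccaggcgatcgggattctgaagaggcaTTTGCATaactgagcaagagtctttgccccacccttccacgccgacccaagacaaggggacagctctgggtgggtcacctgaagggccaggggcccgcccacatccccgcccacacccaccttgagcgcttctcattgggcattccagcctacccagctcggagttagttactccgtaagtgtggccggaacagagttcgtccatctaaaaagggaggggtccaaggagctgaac
In Sox2 the octamer core began 99 bases before the start and in Zfp42 185 bases before it. Starts here are those of RefSeq transcripts. In the windows shown, the Nanog start is also the GENCODE gene start, and the Zfp42 start lies 29 bases upstream of the GENCODE gene start. The Sox2 start lies 410 bases upstream, so that the whole Sox2 window is outside the GENCODE gene. The Nanog window held 4 CpG dinucleotides, the Zfp42 window 11 and the Sox2 window 27, where the median of all windows was 7. A match is a run of letters and not a measured binding site. Of the 3 genes with these windows, Zfp42 had the highest mean RNA level. Nanog and Sox2 were alike in mean level, but Nanog had RNA in every library and Sox2 in 3 of 8.

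Prdm14 and Sall4 supplied most of the RNA of this group, while the core factors Pou5f1, Sox2 and Nanog were scarce. Per kilobase of exon, the means over 8 libraries were 10.5 ± 7.95 CPM for Prdm14, 6.53 ± 1.65 for Sall4, 4.02 ± 2.95 for Zfp42 and 1.37 ± 1.14 for Pou5f1. Nanog followed at 0.686 ± 0.398, Lin28a at 0.627 ± 0.949, Sox2 at 0.593 ± 0.821 and Esrrb at 0.471 ± 0.297 CPM per kilobase (SD, n = 8). For ranks on this length-corrected scale, genes without a single annotated length were left out. Prdm14 lay above 76.9% of the remaining tested genes, Sall4 above 69.5%, Zfp42 above 59.8% and Pou5f1 above 34.6%. Nanog, Lin28a, Sox2 and Esrrb lay above 13.2% to 19.7% of them. Each neighbouring pair in this order overlapped in its range over libraries. Prdm14 exceeded Sall4 per kilobase in 6 of 8 libraries, Sall4 exceeded Zfp42 in 7 of 8, and Zfp42 exceeded Pou5f1 in 7 of 8, while Sox2 exceeded Esrrb in 3 of 8.

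**Figure D1:**
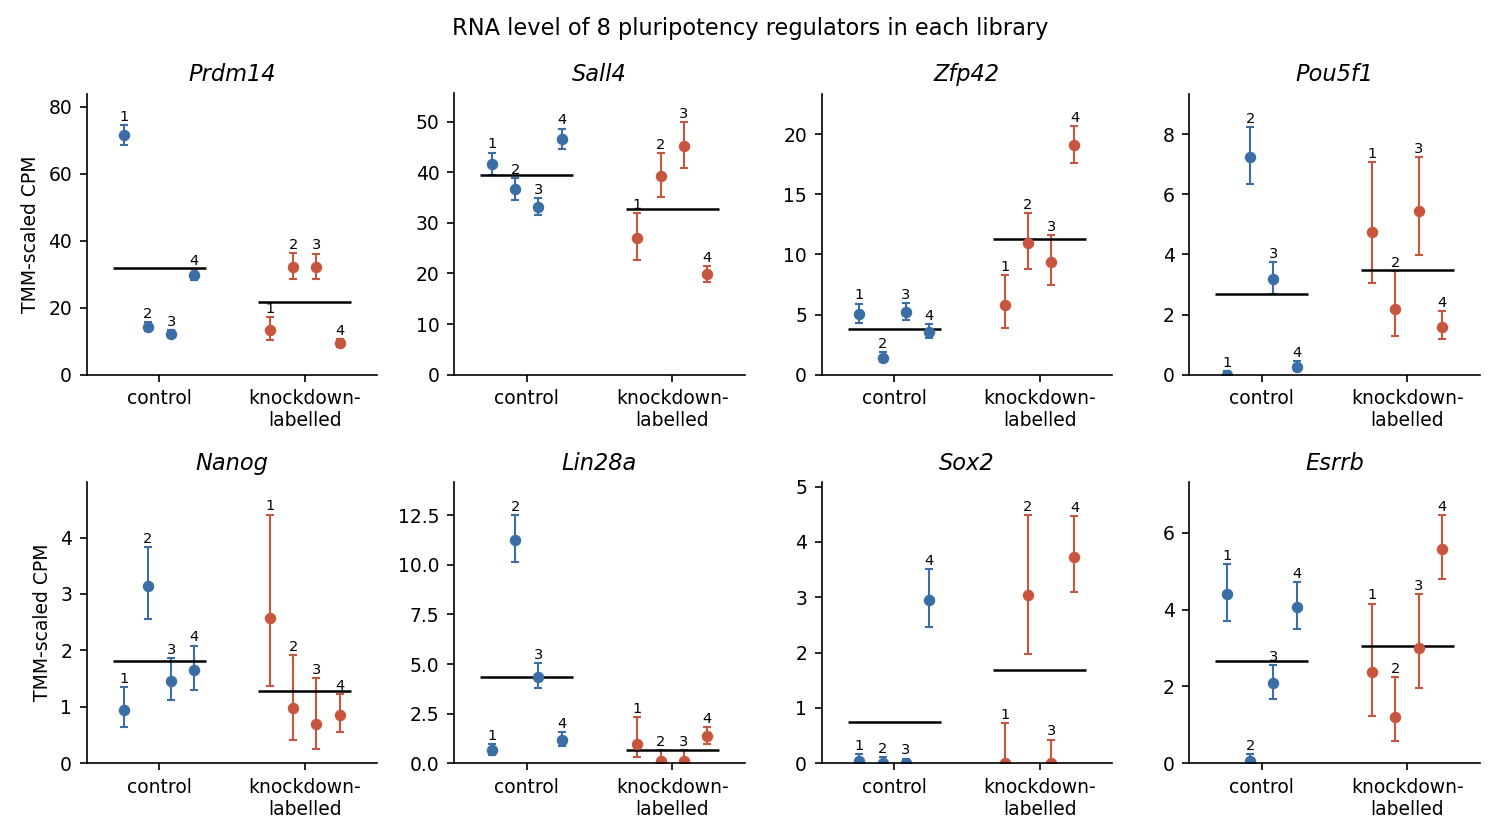
RNA level of each regulator in each library (TMM-scaled CPM), one panel per gene with its own axis from 0, controls in blue and knockdown-labelled libraries in red, numbered by replicate. Bars are exact Poisson 95% intervals for counting error, black lines are group means, and only Zfp42 has groups that do not overlap (highest control 5.24 CPM, lowest knockdown-labelled library 5.75 CPM).

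Prdm14 encodes a PR-domain zinc finger protein that, with its partner Cbfa2t2, holds down DNA methylation and differentiation genes in the naive state. Prdm14 was at 71.5, 14.4, 12.2 and 29.9 CPM in control replicates 1 to 4 and at 13.5, 32.2, 32.1 and 9.43 CPM in knockdown-labelled replicates 1 to 4. Control replicate 1 stood far above every other library, and the groups overlapped over most of their range. The value of control replicate 1 rests on 2338 counts, with an exact Poisson interval of 68.6 to 74.4 CPM. The group means were 31.99 ± 27.5 CPM (controls) and 21.8 ± 12.1 CPM (knockdown-labelled, SD, n = 4), and edgeR gave a log2 fold change of −0.55 (SE 0.63, adjusted p = 1.0). Without control replicate 1 the control mean was 18.8 CPM and the log2 fold change turned to 0.21, and without the 3 shallow knockdown-labelled libraries it was −1.76. The gene (ENSMUSG00000042414.7) lies on the minus strand of chromosome 1 from 13113457 to 13127163 in GRCm38, the build of all positions given here, has 8 exonic regions and overlaps no other annotated gene.

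Sall4, a zinc finger factor that activates Pou5f1 and recruits the NuRD chromatin complex, was the steadiest of the 8. It was at 41.6, 36.7, 33.2 and 46.6 CPM in control replicates 1 to 4 and at 27.0, 39.2, 45.2 and 19.9 CPM in knockdown-labelled replicates 1 to 4. Knockdown-labelled replicates 1 and 4 fell short of every control, whereas replicates 2 and 3 were inside the control range. The means were 39.5 ± 5.83 and 32.8 ± 11.5 CPM. The fitted level was 83.0% of control with a 95% interval from 50.6% to 136% (log2 fold change −0.27, SE 0.32, adjusted p = 1.0 by edgeR). A fall of Sall4 to less than 50.6% of control therefore lay outside the interval, the narrowest among the 7 genes fitted. Sall4 (ENSMUSG00000027547.17) lies on the minus strand of chromosome 2 from 168748332 to 168767943. It shares 526 exonic bases with Gm14261 on the opposite strand, a gene with 0 to 155 counts per library, and without a stated strand setting those reads cannot be told apart.

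Zfp42 was the only one of the 8 whose groups did not overlap. It was at 5.08, 1.42, 5.24 and 3.58 CPM in control replicates 1 to 4 and at 5.75, 10.9, 9.36 and 19.1 CPM in knockdown-labelled replicates 1 to 4. All 4 knockdown-labelled libraries lay above all 4 controls, with the lowest of them close to the highest control. The lowest, replicate 1, rests on 29 counts, and its exact Poisson interval of 3.85 to 8.26 CPM includes the values of control replicates 1 and 3. The means were 3.83 ± 1.77 and 11.3 ± 5.64 CPM, and the mean of the knockdown-labelled group was 8.68 CPM without replicate 4. The fitted difference was 2.95-fold with a 95% interval from 0.995-fold to 8.75-fold (log2 fold change 1.56, SE 0.71, unadjusted p = 0.0510, adjusted p = 1.0 by edgeR). It therefore did not pass the test, although the estimate stayed positive in all settings tried, from 1.18 to 2.32. Among all tested genes, 2.98% had groups that did not overlap, and 1.44% did so with the knockdown-labelled libraries higher. Zfp42 (ENSMUSG00000051176.6) lies on the minus strand of chromosome 8 from 43295063 to 43306980 and overlaps no other annotated gene, and Zfp42-ps1, a pseudogene row, had 0 counts in all 8 libraries.

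Pou5f1 was present in 7 libraries and absent from control replicate 1, which was deeply sequenced. It was at 0, 7.25, 3.18 and 0.256 CPM in control replicates 1 to 4 and at 4.76, 2.19, 5.43 and 1.60 CPM in knockdown-labelled replicates 1 to 4. Control replicate 1 had 0 counts against 230 in control replicate 2, and the knockdown-labelled libraries lay between those extremes. For the count of 0 in control replicate 1 the exact Poisson 95% interval reaches 0.113 CPM, with counting error alone considered. The floor of 3 counts stands for 0.0917 CPM in that library. The means were 2.67 ± 3.37 and 3.49 ± 1.88 CPM (log2 fold change 0.38, SE 1.58, adjusted p = 1.0 by edgeR), with a 95% interval from 0.114-fold to 15.0-fold. The log2 fold change was −0.021 without control replicate 1 and 1.60 without control replicate 2, and limma-voom gave 2.09 with all libraries, so no direction can be given for Pou5f1. It spans 35506018 to 35510772 on chromosome 17, plus strand (ENSMUSG00000024406.16), and shares 317 exonic bases with Gm19553, an antisense gene with 0 counts in all 8 libraries.

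Sox2 had either no RNA or a clear signal, with little between. Its counts were 1, 0, 0 and 127 in control replicates 1 to 4 and 0, 25, 0 and 119 in knockdown-labelled replicates 1 to 4. The 3 libraries with RNA were at 2.96, 3.04 and 3.73 CPM, and the other 5 were at or below 0.0306 CPM. In the 2 shallow libraries at 0, a count of 3 would stand for 0.595 CPM in replicate 1 and 0.347 CPM in replicate 3, both below the level of the 3 libraries with RNA. Sox2 failed the filter on low counts and was not fitted. Permuting the 8 levels between the groups exactly, 2-sided, gave p = 0.429, where the smallest p possible with 70 assignments is 0.0286, and the difference in means was 0.945 CPM (0.747 ± 1.47 and 1.69 ± 1.97, n = 4 each). Sox2 (ENSMUSG00000074637.7) is a gene of a single exon on chromosome 3, plus strand, spanning 34650405 to 34652461. It lies within the span of Sox2ot, a noncoding gene on the same strand that had 1 count over all 8 libraries.

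Nanog, a homeobox factor, was low in every library, in contrast to the on-or-off pattern of Sox2. Its counts ranged from 31 to 100 in the controls and from 6 to 27 in the knockdown-labelled libraries. The levels were 0.948, 3.15, 1.46 and 1.65 CPM in control replicates 1 to 4 and 2.58, 0.972, 0.693 and 0.846 CPM in knockdown-labelled replicates 1 to 4. The groups overlapped, and knockdown-labelled replicate 1 lay apart from the other 3 of its group at 13 counts. The means were 1.80 ± 0.946 and 1.27 ± 0.878 CPM (log2 fold change −0.51, SE 1.11, adjusted p = 1.0 by edgeR). Nanog (ENSMUSG00000012396.12) spans 122707489 to 122714633 on chromosome 6, plus strand, and the pseudogene rows Nanog-ps1 and Nanog-ps2 had 0 counts in all 8 libraries.

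Esrrb, an orphan nuclear receptor that can stand in for Nanog in stem cells, was at 4.40, 0.0630, 2.08 and 4.07 CPM in control replicates 1 to 4. In knockdown-labelled replicates 1 to 4 it was at 2.38, 1.21, 3.004 and 5.58 CPM. Control replicate 2, with 2 counts, was the only library without clear Esrrb RNA, and the groups overlapped. The means were 2.65 ± 2.01 and 3.04 ± 1.84 CPM (log2 fold change 0.20, SE 1.26, adjusted p = 1.0 by edgeR). The estimate turned to −0.20 without control replicate 2 and to −0.28 without knockdown-labelled replicate 4, and was 1.24 by limma-voom. Esrrb (ENSMUSG00000021255.17) spans 86361117 to 86521628 on chromosome 12, plus strand, and overlaps no other annotated gene.

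Lin28a had the lowest fitted fold change of the 7 tested, and did not pass. It was at 0.642, 11.3, 4.37 and 1.19 CPM in control replicates 1 to 4 and at 0.992, 0.121, 0.116 and 1.35 CPM in knockdown-labelled replicates 1 to 4. Control replicates 2 and 3 were high, while control replicates 1 and 4 lay among the knockdown-labelled libraries. Knockdown-labelled replicates 1, 2 and 3 held 5, 1 and 1 counts, so their levels have wide counting intervals, up to 2.31 CPM in replicate 1. The means were 4.37 ± 4.89 and 0.644 ± 0.624 CPM (log2 fold change −2.74, SE 1.44, unadjusted p = 0.0858, adjusted p = 1.0 by edgeR), with an interval from 0.0163-fold to 1.38-fold. Without control replicate 2 the control mean was 2.07 CPM and the log2 fold change −1.65. Lin28a (ENSMUSG00000050966.9) lies on the minus strand of chromosome 4 from 134003330 to 134018841. It shares 234 exonic bases with Gm13061 on the opposite strand, which had 91 counts in control replicate 1, the control with the lowest Lin28a level, and 0 elsewhere. Without a stated strand setting, reads from the shared bases cannot be told apart.

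**Figure D2:**
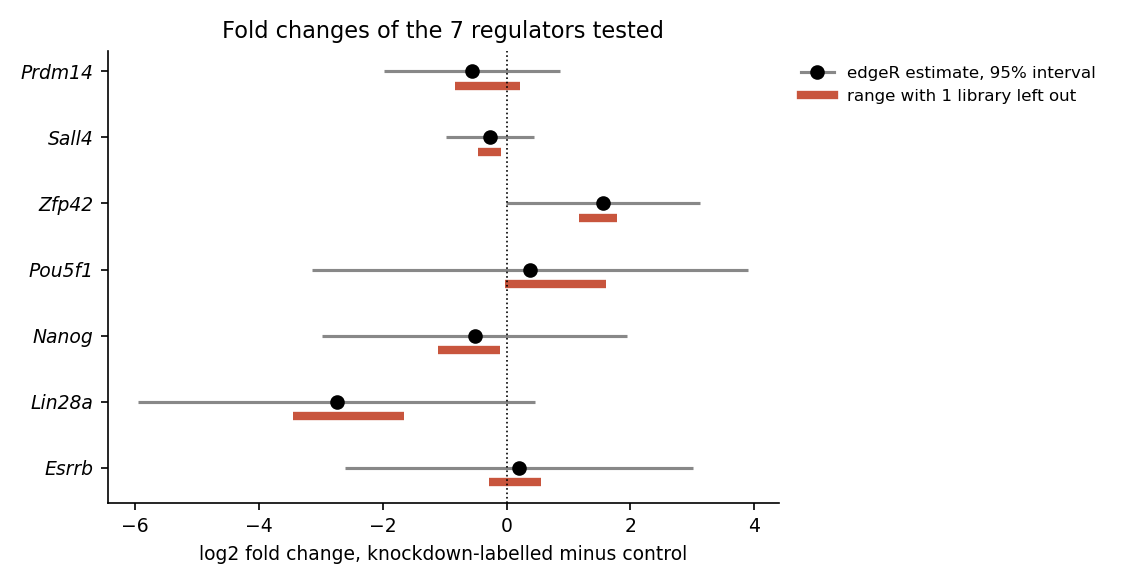
Log2 fold change (knockdown-labelled minus control) of the 7 regulators tested, with edgeR 95% intervals in grey and the range of estimates with 1 library left out in red. Every interval includes 0, and the interval of Sall4 is the narrowest.

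None of the 7 regulators tested passed at an adjusted p under 0.05, and 0% of the 13146 genes did (0 genes by edgeR, with 369 genes or 2.81% at an unadjusted p under 0.05). None of the 7 reached an unadjusted p under 0.05 by edgeR with TMM scaling, whereas Zfp42 was at an unadjusted p of 0.0201 by DESeq2 (adjusted p = 0.910) and 0.0110 by limma-voom (adjusted p = 0.747). Lin28a was at an unadjusted p of 0.0373 by DESeq2 (adjusted p = 1.0). DESeq2 called 20 genes (0.154%), and its share of all genes at an unadjusted p under 0.05 was not counted. Limma-voom called 0 genes, with 863 genes (6.56%) at an unadjusted p under 0.05. Neither called any of the 7 regulators tested. Over all genes, the median interval was narrower at higher abundance. For all genes with a control mean from 2 to 5 CPM, where Pou5f1, Esrrb, Zfp42 and Lin28a lie, the median 95% interval reached 10.3-fold either way, against 1.92-fold for genes from 20 to 50 CPM, where Prdm14 and Sall4 lie. The regulators' own intervals reached 1.64-fold either way for Sall4, 2.67-fold for Prdm14 and 2.97-fold for Zfp42. They reached 5.52-fold for Nanog, 7.03-fold for Esrrb, 9.21-fold for Lin28a and 11.5-fold for Pou5f1, so that among the scarce regulators the width did not follow the order of their levels. The absence of a call does not show equal levels. In a pool of embryos, fewer cells with a transcript and less of it per cell cannot be told apart.

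The make-up of the group differed from pool to pool. Prdm14 and Sall4 together made up 89.8%, 59.8%, 63.1% and 79.5% of the summed level per kilobase in control replicates 1 to 4, and 59.3%, 68.8%, 71.5% and 33.7% in knockdown-labelled replicates 1 to 4. Prdm14 was the highest of the 8 in 5 libraries, Sall4 in control replicates 2 and 3, and Zfp42 in knockdown-labelled replicate 4. In that last library Zfp42 made up 47.0% of the sum, more than in any other, while Sall4 and Prdm14 were at their lowest of all 8 libraries and Sox2 and Esrrb at their highest. Control replicate 2 showed another pattern, with the highest Pou5f1, Nanog and Lin28a of all libraries and the lowest Zfp42 and Esrrb. Both libraries were deep, with 33650050 and 35007614 counts. These patterns were picked out after the values were seen and carry no test.

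**Figure D3:**
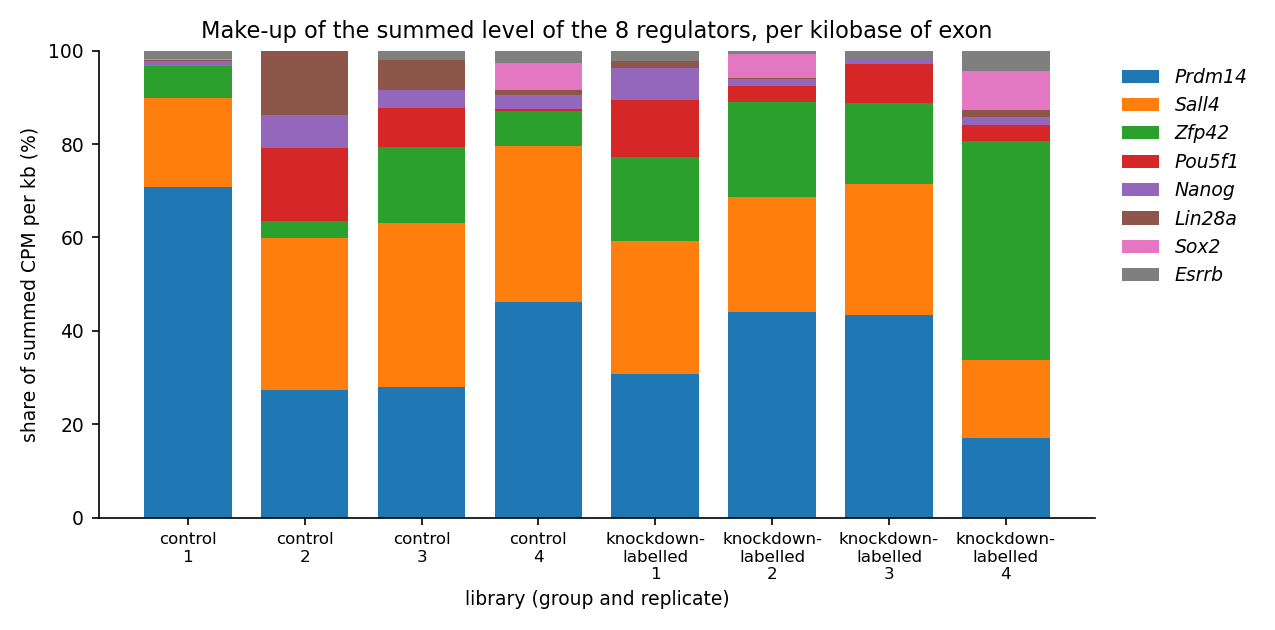
Share of each regulator in the summed CPM per kilobase of the 8 genes, in percent, one bar per library. Prdm14 takes 70.7% of control replicate 1 and Zfp42 47.0% of knockdown-labelled replicate 4.

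Spread among the 4 controls, all deeply sequenced, was compared with that of other tested genes whose control mean lay within 2-fold. Prdm14 varied with a coefficient of variation of 85.9%, where the median of 2950 genes of like level was 39.6% and 96.4% of them varied less. That value rests on control replicate 1, without which it was 51.2%, against a median of 42.6% among 3419 genes of like level over the same 3 libraries. Sall4, at nearly the same level in CPM, varied by 14.7%, and 6.93% of 2743 genes of like level varied less. With 1 control left out it varied by 11.4% to 17.8%. Among the scarce regulators, Pou5f1 (126%) and Lin28a (112%) varied more than the medians at their levels of 90.2% and 79.2%, and Zfp42 (46.3%) and Nanog (52.4%) varied less than theirs of 82.5% and 99.4%. Without control replicate 2 the spread was 19.7% for Zfp42 and 26.9% for Nanog. Leaving out controls was chosen here after the data were seen. Sox2 (197%) failed the filter that the compared genes passed and was not ranked among them. Zero or near-zero values in a deep library were common at this abundance: 50.9% of all tested genes with a control mean from 2 to 5 CPM had a control library with at most 3 counts, and 0.302% of those from 20 to 50 CPM did.

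**Figure D4:**
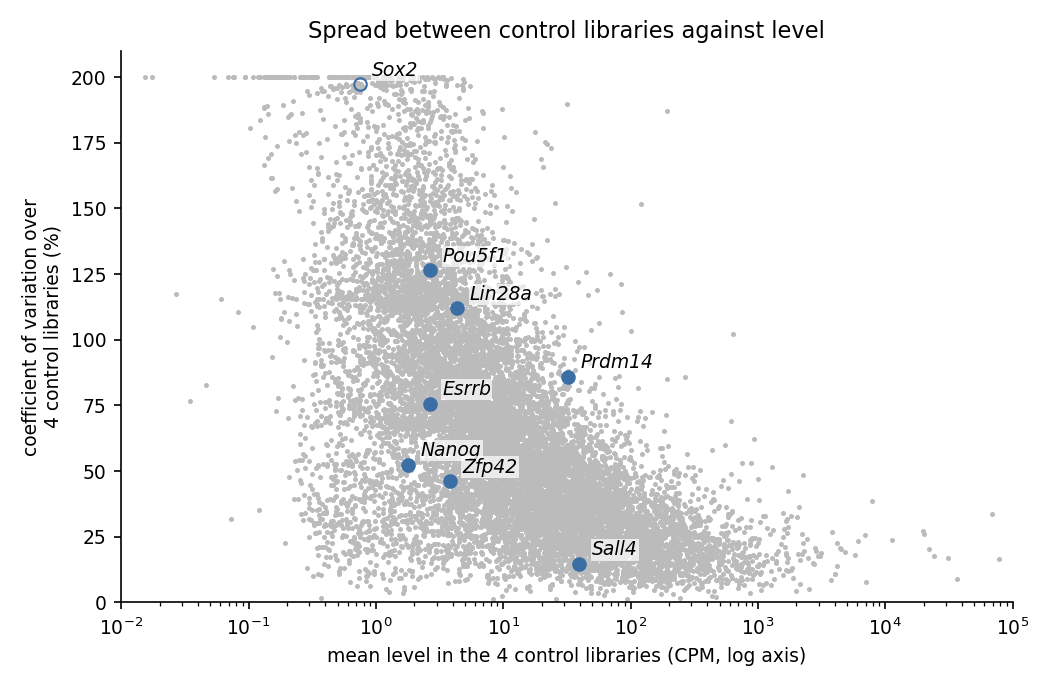
Coefficient of variation over the 4 control libraries (percent) against mean control level (CPM, log axis) for the tested genes with a control count in grey and the 8 regulators in blue, with an open circle for Sox2, which failed the filter. Prdm14 (85.9%, or 51.2% without control replicate 1) lies above and Sall4 (14.7%) below most genes at their level.

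By the root mean square difference between centred log2 CPM over the 8 libraries, the genes most like Sall4 among 5439 compared were Tmem68, at 0.18, and Ciao2a, at 0.20, where Sall4 itself varied about its mean by 0.39. Tmem68 averaged 63.4 ± 11.2 CPM in control pools and 50.4 ± 20.5 CPM in knockdown-labelled pools. The genes most like Prdm14 were Ocm, at 0.39, and Pus7, at 0.45, against a variation of Prdm14 of 0.92. Ocm was at 27.9 ± 17.5 and 22.6 ± 14.4 CPM. The other regulators had means under 10 CPM and were not compared in this way.

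Some other genes of the pluripotency network reached far higher levels than the 8 regulators, and none of those tested passed. Of 32 such genes 24 were tested, 12 of them with a positive and 12 with a negative log2 fold change, and a median of 0.0063, where the median of all 13146 genes was −0.047. Dppa3 (STELLA), an oocyte-supplied protector of the maternal genome's methylation, was the most abundant per kilobase, with means of 36671 ± 3300 CPM in control pools and 35363 ± 6566 CPM in knockdown-labelled pools. Fbxo15, a known target of Pou5f1 and Sox2, was at 447 ± 76.9 and 545 ± 62.2 CPM (log2 fold change 0.29, SE 0.17). Dnmt3l, a cofactor of the methyltransferases that act in the oocyte, was at 28.8 ± 6.07 and 14.0 ± 10.9 CPM (−1.04, SE 0.61). Nr0b1, Utf1 and Otx2, chosen by name after their values were seen, had 0 counts in all 8 libraries. At this stage the network held genes from 0 CPM to a control mean of 36671 CPM, and 18 of the 32 exceeded 3 counts in every library, as did 4 of the 8 regulators.

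Of 20 genes of chromatin proteins that work with these factors, 17 exceeded 3 counts in every library. Of 19 tested, 11 were higher and 8 lower on average in knockdown-labelled pools (median log2 fold change 0.029), and 0 passed after adjustment. Suz12, a core subunit of Polycomb repressive complex 2 and the most abundant per kilobase, was at 390 ± 71.1 and 349 ± 33.1 CPM. Mbd3, a subunit of the NuRD complex, averaged 1.13 ± 1.14 CPM in control pools and 10.8 ± 5.66 CPM in knockdown-labelled pools (log2 fold change 3.25, SE 1.31, unadjusted p = 0.0328, adjusted p = 1.0 by edgeR). Tet1, a 5-methylcytosine dioxygenase, was at 20.3 ± 4.69 and 32.9 ± 2.96 CPM (0.69, SE 0.31, unadjusted p = 0.0470, adjusted p = 1.0 by edgeR). Both had groups that did not overlap, as did 2.98% of all genes tested.

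In the pathway of Lin28 and let-7, 12 of 13 genes were tested, 5 with positive and 7 with negative estimates (median log2 fold change −0.040) and 0 calls. Drosha, the nuclease that starts microRNA processing, was the most abundant per kilobase at 29.3 ± 18.4 and 20.3 ± 2.36 CPM. Igf2bp1, an RNA-binding protein whose RNA is a let-7 target, was at 1.38 ± 0.918 and 5.21 ± 4.66 CPM (log2 fold change 1.92, SE 1.21, unadjusted p = 0.145 by edgeR). It was the 1 gene of the 12 tested whose groups did not overlap, as was so for 2.98% of all genes tested. Ago2, the slicer Argonaute, was at 27.1 ± 5.58 and 21.1 ± 5.06 CPM (−0.36, SE 0.33). Lin28b, the paralogue of Lin28a, was at 12.2 ± 5.17 and 8.61 ± 3.02 CPM, above 3 counts in all 8 libraries where Lin28a was in 6.

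Of 14 regulators of the first lineages, 4 exceeded 3 counts in every library, and 5 did not exceed 3 counts in any library, namely Cdx2, Eomes, Elf5, Sox17 and Sox7, chosen by name after their values were seen. Of 6 tested, 3 had positive and 3 had negative estimates (median log2 fold change 0.10), with 0 calls. Yap1, a coactivator in the Hippo pathway and the most abundant per kilobase, was at 56.6 ± 20.0 and 54.8 ± 5.51 CPM. Gata6, a factor of primitive endoderm, was at 1.02 ± 1.24 and 3.71 ± 2.99 CPM, and Wwtr1 (TAZ) at 5.23 ± 3.81 and 8.002 ± 3.84 CPM.

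Paralogues showed which members of each protein family were present beside the 8. Of 33 paralogues 19 were tested, 11 with positive and 8 with negative estimates (median log2 fold change 0.012) and 0 calls. Yy2 and Yy1, relatives of Zfp42, averaged 58.4 ± 19.9 and 95.9 ± 17.5 CPM in control pools, and 61.7 ± 45.6 and 121 ± 19.5 CPM in knockdown-labelled pools. Pou4f1, a POU factor best known from sensory neurons, was at 27.95 ± 10.5 and 41.1 ± 4.49 CPM (log2 fold change 0.56, SE 0.33), a mean of 7.39 CPM per kilobase over 8 libraries against 1.37 for Pou5f1. Chosen after their values were seen, Sox15 was at 9.92 CPM per kilobase against 0.593 for Sox2, and Esrrg at 3.04 against 0.471 for Esrrb. Sall1 and Sall3, the paralogues of Sall4 in this list other than Sall2, did not exceed 1 count in any library. Prdm1 and Lin28b stand in more than one of these lists.

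**Figure D5:**
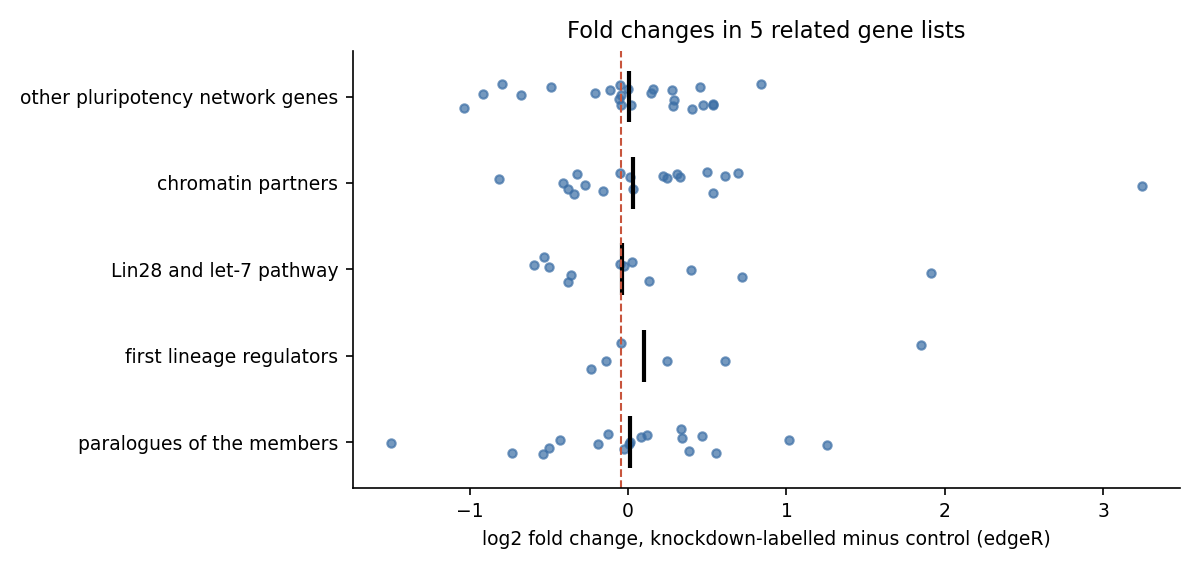
Log2 fold change (edgeR, knockdown-labelled minus control) of every tested gene in 5 related lists, one point per gene with vertical jitter, a black bar for the list's median and a dashed red line for the median of all genes tested (−0.047). The medians run from −0.040 to 0.10, and the point farthest to the right is Mbd3 (3.25).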

How the data were processed

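RNA from 8 pools of 2-cell embryos was sequenced, 4 control and 4 knockdown-labelled. The authors deposited RSEM expected counts without normalisation. The tools listed, per the submitters' processing notes, were RSEM 1.2.28, STAR 2.7.3a and Trim Galore 0.6.10, and the build was GRCm38 (mm10). RSEM divides multi-mapped reads by estimation. The sources used here do not give the annotation release, strand setting or filters. Positions and exonic lengths come from GENCODE M21, in which 53243 of 55487 row names matched 1 symbol.

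Expected counts were rounded, which changed 4.22% of values. Genes were filtered with filterByExpr (minimum count 10, minimum total 15), scaled by TMM and compared with edgeR 4.0.16 in R 4.3.3 (quasi-likelihood, robust, group as the only term). P-values were adjusted by Benjamini-Hochberg over all 13146 genes, with a threshold of 0.05. Standard errors and 95% intervals were derived from the F statistic. The procedure was tested on simulated counts that varied less between libraries than these data, with changes only in genes of at least 10 CPM. That test does not show how the procedure performs at the spread found here or at lower levels. Counting intervals are exact Poisson and cover counting error only, because the labels mention no molecular identifiers, and the floor was 3 counts. Per the labels, the 4 samples in each group are biological replicates.

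Named genes are the 8 regulators, Polq, from each list the most abundant gene per kilobase and the 2 with the smallest p, and the 2 genes most like each regulator of at least 10 CPM (log2 CPM, prior count 2, predicted genes left out). The members and lists were chosen with earlier results of these data known. Alternatives were other scalings, filters and tests (DESeq2 1.42.0, limma 3.58.1), a replicate block, thinning and left-out libraries.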

Additional observations from a re-analysis of the deposited data

Results flagged for a closer look

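In the 16 sets of 4 values (8 regulators in 2 groups), 2 held a library far from the other 3 by the gap between values. The limit used is passed by chance in about 1 in 20 sets of normally distributed values. Many of these levels are low and skewed and the sets share libraries, so that rate need not hold here. Sox2 was at 2.96 CPM in control replicate 4, on 127 counts, while the other 3 controls had 0 or 1 count. Nanog was at 2.58 CPM in knockdown-labelled replicate 1, on 13 counts in the shallowest library, against 0.693 to 0.972 CPM in the other 3 of its group. The exact Poisson interval of that Nanog value, 1.37 to 4.41 CPM, covers counting error only and overlaps those of replicates 2 and 3, which reach 1.92 and 1.51 CPM.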

How the results depend on the processing

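In the 12 alternative settings and with any 1 library left out, no regulator that could be fitted was called. The number of genes called in the whole table was 0 in all of these except DESeq2, which called 20. Estimates for Zfp42 (1.18 to 2.32), Sall4 (−0.98 to −0.093), Lin28a (−3.45 to −1.65) and Nanog (−1.10 to −0.098) kept their sign wherever they could be fitted. With 1 library left out, Pou5f1 ran from −0.021 to 1.60, Esrrb from −0.28 to 0.56 and Prdm14 from −0.83 to 0.21. Thinning to 4726160 counts gave −0.25 for Esrrb and left Lin28a and Nanog untested, and the filter of 5 CPM in 4 libraries kept only Zfp42, Sall4 and Prdm14. Limma-voom gave 2.09 for Pou5f1 and 1.24 for Esrrb, and with sample quality weights 2.37 and 0.81. With replicate 4 as the lone knockdown-labelled library, assumed to vary like the controls, Pou5f1 was at −0.72, Polq at 0.073, Prdm14 at −1.76, Sall4 at −0.98, Lin28a at −1.68, Zfp42 at 2.32 and Esrrb at 1.07, and the causes of these changes were not tested. The smallest adjusted p of any regulator fitted in any of these settings was 0.475, for Zfp42 without the filter on low counts. The difference in mean Sox2 level stayed positive, from 0.266 to 1.68 CPM with 1 library left out. The sign of no regulator depended on the scaling.

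The deviations of same-numbered libraries from their group means correlated by −0.075 to 0.0085. These correlations cannot show whether same-numbered libraries had a shared origin. With a replicate block 0 genes and 0 regulators were called, and Pou5f1 was at 1.89, Esrrb at 0.85 and Zfp42 at 1.60.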
